A study of Mus musculus with 2 samples.

Results

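The cytoplasmic ribosomal protein genes encode the protein part of the ribosome outside the mitochondria. They were taken by symbol, as every gene whose name is Rpl or Rps followed by a digit, together with Rplp0, Rplp1, Rplp2 and Rpsa, leaving out the Rps6k kinases and names that contain -ps. The rule found 88 of the 20938 genes listed for splenic regulatory T (Treg) cells. Of these, 46 encode the standard proteins of the large subunit and 31 those of the small subunit, together called the 77 core genes. The other 11 are relatives of core genes, copies made by reverse transcription of an mRNA, and Rps19bp1. Rps19bp1 encodes a protein that binds Rps19 and is not itself a ribosomal protein. Read counts do not show whether the product of a relative is part of the ribosome.

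Each ribosome is built from a large and a small subunit, and most ribosomal proteins are present once in each particle. The mRNAs of these genes belong to the 5′ TOP class, which begins with a C and a run of pyrimidines and whose translation is switched by mTOR signalling through Larp1. T cells that leave rest enlarge their ribosome pool, and the transcription factor Myc is known to drive that growth. Many processed pseudogenes resemble these genes closely, so that short reads from a parent and a copy can be hard to separate.

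Spleen Treg cells were sequenced on day 7 after islet transplantation, with 1 library of Foxp3-Mettl14f/+ cKO mice (cKO) and 1 of littermate controls (Ctrl). In the cKO mice, on a C57BL/6J background, Cre driven by Foxp3 deletes 1 floxed allele of Mettl14 in cells that express Foxp3, and Mettl14 encodes a subunit of the m6A methyltransferase. All recipients were made diabetic with streptozotocin and received BALB/c islets under the kidney capsule without antibody treatment, and Treg cells were enriched by depletion of non-CD4+ cells followed by CD25 selection on magnetic beads. The sample label calls the Ctrl library wild type and the cKO library a Foxp3 knockdown. The methods give the littermate controls as Mettl14f/f, which the label does not repeat. How many animals entered a library, and their age and sex, are not given in the sources used here.

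Deposited levels were read counts divided by 1 factor per library, and the whole reads behind them came to 20239325 in Ctrl and 18327535 in cKO. Mettl14 had 948 reads in Ctrl and 652 in cKO, a log2 ratio of -0.31 (95% interval -0.45 to -0.16) on the deposited scale. With the median of 16 T cell core markers set equal between the libraries, the Mettl14 ratio was -0.024, so its difference depended on the scale. Foxp3 had 1547 and 1361 reads, a log2 ratio of 0.048 (-0.058 to 0.15) and the library labelled a Foxp3 knockdown thus showed no detectable difference in Foxp3 reads. Since neither genotype was replicated, no difference below can be set against a spread between samples. Intervals are exact Clopper-Pearson intervals at 95% on the reads and cover counting error only. Log2 ratios are cKO over Ctrl on deposited levels plus 1, and a gene was called higher or lower at 1.5-fold when its mean level was at least 1.

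Markers of other spleen cells were present and differed between the libraries. The summed level of 12 B cell markers was 9194 in Ctrl and 48493 in cKO, and that of 12 macrophage markers was 3907 and 13842. In each list 12 of 12 genes were called higher (all genes, 17.2%). Only Marco of the macrophage list was at 0 reads in Ctrl, against 20 in cKO, and no B cell marker was at 0. Granulocyte markers summed to 254935 and 351976, erythroid markers to 38952 and 22960, and 16 T cell core markers to 76612 and 61918. The part of these cells in the ribosomal protein values was not tested, and in bulk RNA fewer cells of a type and less RNA per cell cannot be told apart.

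The 77 core genes differed little between the libraries. Their median log2 ratio was -0.028, with quartiles of -0.089 and 0.058, whereas all 16659 genes past the filter had a median of -0.042 with quartiles of -0.55 and 0.35. The change stayed under 1.2-fold in 73 of 77 core genes (94.8%), against a background of 34.4% of all genes and 54.7% of the 4897 genes whose level averaged 1000 or more. Only Rpl34 and Rps27 were called higher, where the background was 17.2% of all genes, and no core gene was called lower, where it was 24.2%. In the set that averaged 1000 or more, which includes all 77 core genes, these shares were 10.1% and 5.17%. Of all 87 members past the filter, 2 were called higher and 3 lower, where 41.4% of all genes were called in either direction. At 1.2-fold 2 members were higher and 7 lower (all genes, 29.3% and 36.3%), and at 2-fold 0 were higher and 3 lower (all genes, 10.3% and 18.1%). An exact binomial test on the reads, which sets library against library and not genotype against genotype, called 2 members higher and 4 lower, against 14.2% and 18% of all genes.

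**Figure D1:**
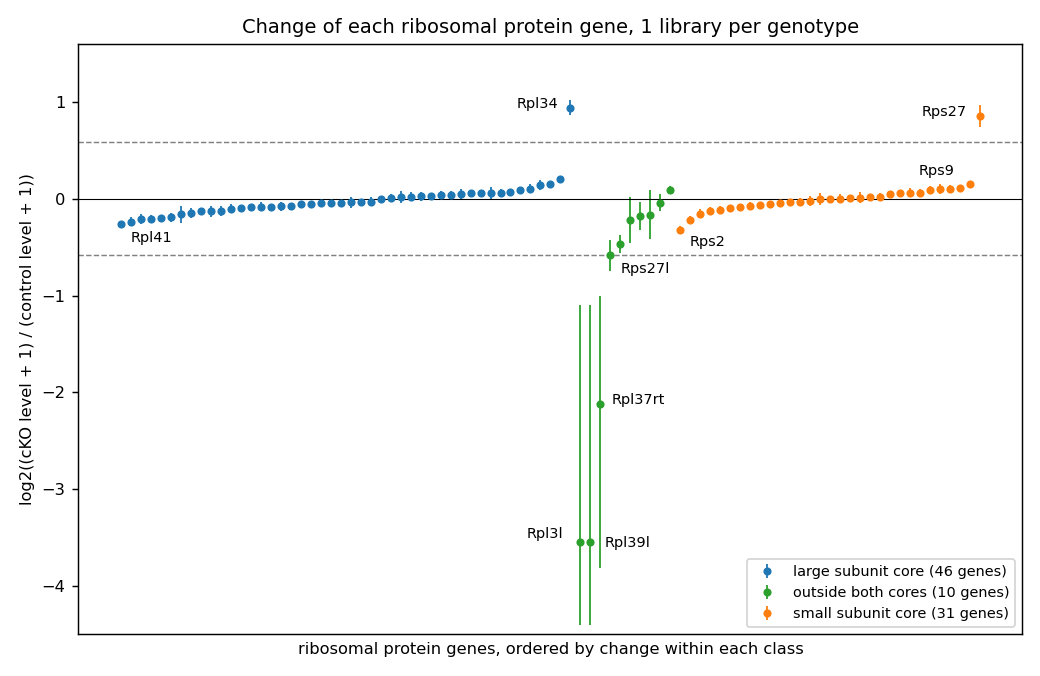
Log2 ratio of the level in cKO over Ctrl (vertical axis) for the 87 ribosomal protein genes past the filter, ordered within each class along the horizontal axis. Points are 1 library against 1 library, bars are 95% counting intervals, dashed lines mark 1.5-fold, and the lower bars of Rpl3l and Rpl39l, which had 0 reads in cKO, have no lower end and are cut by the axis. Rpl34 at 0.94 and Rps27 at 0.85 stand above all other core genes, which lie within 1.5-fold.

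Together the 88 genes held 1079504 of the Ctrl reads and 906720 of the cKO reads. Their share was 5.33% of the Ctrl library (5.32% to 5.34%) and 4.95% of the cKO library (4.94% to 4.96%). On the deposited scale, which divides each library by its own factor, their summed level was 1044300 in Ctrl and 1031090 in cKO, a log2 ratio of -0.018 (-0.022 to -0.014). Scaled by library totals instead, the same ratio was -0.108. How far the ribosomal proteins as a whole stood below the control therefore depended on the scale. With the T cell core markers set equal between the libraries, the ratio turned to 0.265.

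Large and small subunit genes had similar medians. The 46 large subunit genes had a median log2 ratio of -0.037 and the 31 small subunit genes a median of -0.0020, and their summed levels gave -0.021 (-0.027 to -0.016) and -0.013 (-0.019 to -0.0062). Of the core genes, 33 lay above 0 and 44 below on the deposited scale, 11 and 66 with library totals, and 76 and 1 with the T cell core markers set equal. Under each of these scales, as with TMM and median of ratios, 74 of 77 core genes lay within 1.2-fold of the core median, and the exceptions on the deposited scale were Rpl34, Rps27 and Rps2.

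**Figure D2:**
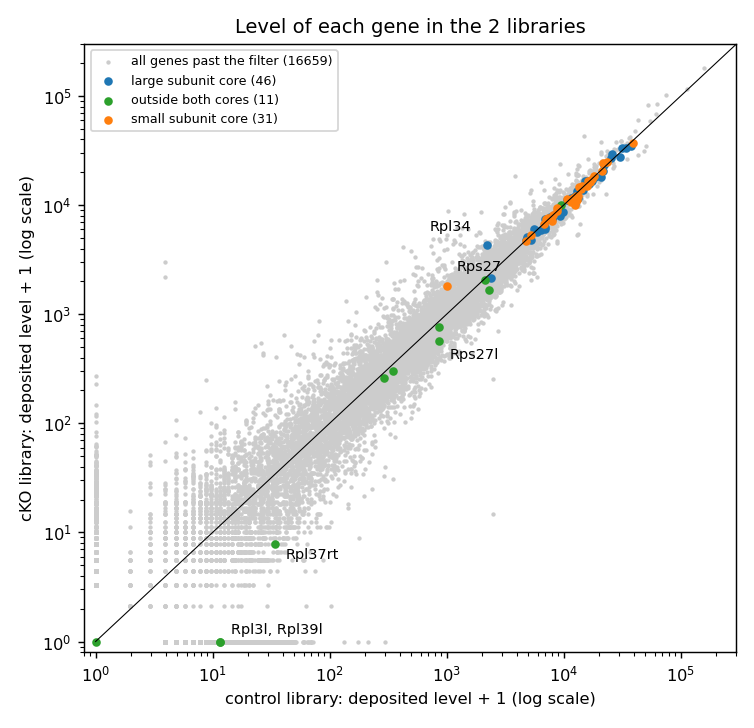
Deposited level plus 1 of each gene in the Ctrl library (horizontal, log scale) and the cKO library (vertical, log scale), with all 16659 genes past the filter in grey and the ribosomal protein genes coloured by class. The line marks equal levels. The core genes lie along that line, Rps27 and Rpl34 lie above it, and Rpl3l and Rpl39l, at the same point, sit at 0 reads in cKO.

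The sequence at the start of these genes is shown because it carries the pyrimidine run for which the group is known. Promoters from RefSeq on GRCm38.p6 were matched for 57 of the 77 core genes, which have 67 promoters listed. A run of at least 6 pyrimidines within 5 bases of the annotated start was present in 44.8% of these promoters, against 20.2% of all 32851. A C at the start followed by 4 pyrimidines was present in 19.4% and 2.51%. In the windows below, which run from 15 bases before the start to the 15th base of the transcript, capitals mark the longest such run, which in Rpl4 and Rpl34 extends past the left edge and in Rps27rt is the left of 2 equally long runs.
Rpl4 (chr9:64173372-64173401, plus strand): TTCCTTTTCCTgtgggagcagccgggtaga
Rpl34 (chr3:130730323-130730352, minus strand): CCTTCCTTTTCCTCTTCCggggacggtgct
Rps27 (chr3:90213634-90213663, minus strand): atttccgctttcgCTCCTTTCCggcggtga
Rps27rt (chr9:114982725-114982754, minus strand): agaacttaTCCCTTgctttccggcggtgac
Rps9 (chr7:3704026-3704055, plus strand): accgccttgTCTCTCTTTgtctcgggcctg
Rps2 (chr17:24720048-24720077, plus strand): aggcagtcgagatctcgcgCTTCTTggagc
Rpl41 (chr10:128549154-128549183, minus strand): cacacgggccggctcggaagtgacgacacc

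Genes with and without the run were found at both ends of the range of changes. Rpl34, Rps27 and Rps9, 3 of the 5 core genes with the highest log2 ratios, hold it, and so does Rps2, the lowest, whereas Rpl41, the next lowest, does not. The letters CGGAAGT, the core of an Ets-type site, on either strand, were in 31.3% of core promoters and 6.42% of all promoters of the same length. AAGATGG, the core of a Yy1-type site, was in 16.4% and 6.34%, and TATAAA in 8.96% and 13.6%. These matches describe letters in a window and do not show binding.

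The stalk and the 5S particle belong to the large subunit. Rplp0 anchors the stalk that recruits elongation factors, and had 35485 reads in Ctrl and 29193 in cKO, a log2 ratio of -0.048 (-0.071 to -0.026). Its acidic partners lay on either side of it, as Rplp1 had 21538 and 15968 reads, a log2 ratio of -0.20 (-0.23 to -0.17), and Rplp2 had 22914 and 20727, a log2 ratio of 0.089 (0.061 to 0.12). Rpl12, at the base of the stalk, was at -0.089. Rpl5 and Rpl11, which carry the 5S rRNA and can bind Mdm2 when ribosome assembly fails, were at -0.13 (31389 and 24392 reads) and -0.083 (8302 and 6667 reads). None of the 6 genes was called in either direction, where the background was 15.2% of genes that averaged 1000 or more.

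The 7 proteins around the tunnel exit, where the new chain leaves the large subunit, had a median log2 ratio of -0.036. Rpl17 was the highest at 0.15, with 15646 reads in Ctrl and 14788 in cKO, and Rpl31 the lowest at -0.079, with 9288 and 7480. The others were Rpl19 at 0.064, Rpl23a, the docking site of targeting factors, at -0.00047, Rpl39 at -0.036, Rpl35 at -0.048 and Rpl26 at -0.054. These values span less than 1.2-fold between the extremes.

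In the small subunit, Rps2, which lines the entry of the mRNA channel, was the lowest of all core genes. It had 13000 reads in Ctrl and 8850 in cKO, a log2 ratio of -0.32 (-0.36 to -0.28). Rps3, its neighbour at the entry, was at -0.052, Rps15, near the decoding site, at -0.00017, and Rps23, in the decoding centre, at -0.0020. Rps2 thus stood apart from its neighbours and still fell short of 1.5-fold. With the T cell core markers set equal it was at -0.038 and was the only core gene below 0.

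The 11 core genes whose loss of 1 copy causes Diamond-Blackfan anaemia, a failure of red cell production, had a median of -0.026. None was called, where the background was 15.2% of genes that averaged 1000 or more. Rps19, the gene first linked to the disease, had 11105 and 10075 reads, a log2 ratio of 0.093 (0.054 to 0.13). Rps7 was the highest at 0.11 and Rpl5 the lowest at -0.13. Rps29 was at 0.10, Rps24 at 0.063, Rpl35a at 0.050, Rps10 at -0.026, Rpl26 at -0.054, Rpl11 at -0.083 and Rps26 at -0.12.

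At the lower end, Rps2 was followed by Rpl41, Rpl22, Rps12 and Rpl36a. Rpl41, which encodes a very short basic peptide that bridges the subunits, had 13054 and 9248 reads, a log2 ratio of -0.26 (-0.30 to -0.23). Rpl22, a large subunit protein required for the development of alpha-beta T cells, had 9708 and 7012 reads, a log2 ratio of -0.24 (-0.28 to -0.19). Rps12 was at -0.22 and Rpl36a at -0.21. At the upper end, Rps9 had 22644 and 21477 reads, a log2 ratio of 0.16 (0.13 to 0.18), and Rpl17 was at 0.15. All of these intervals exclude 0 on the deposited scale, and apart from Rpl34 and Rps27 no core gene reached 1.5-fold.

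Rpl34, a protein of the large subunit, and Rps27, a zinc-binding protein of the small subunit, were the only members called higher. Both have a copy of identical or nearly identical coding sequence whose row also holds reads. Rps27 (chr3:90212522-90213651) had 1044 reads in Ctrl and 1606 in cKO, and its log2 ratio was 0.85 (0.74 to 0.97). Rps27rt (chr9:114982366-114982739), its retrotransposed copy, had 9737 and 8851 reads, and a log2 ratio of 0.096 (0.054 to 0.14). The 255-base coding sequences of Rps27 and Rps27rt have 0 mismatches in the GRCm38 reference, and 98.6% of the 50-base words of the Rps27 transcript also occur in other annotated genes. The paralog Rps27l, which is induced by p53, differs from Rps27 at 61 bases, in capitals here in both coding sequences.
Rps27 (Rps27rt has the same 255 bases): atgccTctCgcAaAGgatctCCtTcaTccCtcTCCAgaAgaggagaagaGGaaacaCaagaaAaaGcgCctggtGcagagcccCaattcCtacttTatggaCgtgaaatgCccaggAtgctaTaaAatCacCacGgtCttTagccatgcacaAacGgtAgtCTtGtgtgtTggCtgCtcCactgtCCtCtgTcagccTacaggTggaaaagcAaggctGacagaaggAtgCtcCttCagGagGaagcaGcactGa
Rps27l: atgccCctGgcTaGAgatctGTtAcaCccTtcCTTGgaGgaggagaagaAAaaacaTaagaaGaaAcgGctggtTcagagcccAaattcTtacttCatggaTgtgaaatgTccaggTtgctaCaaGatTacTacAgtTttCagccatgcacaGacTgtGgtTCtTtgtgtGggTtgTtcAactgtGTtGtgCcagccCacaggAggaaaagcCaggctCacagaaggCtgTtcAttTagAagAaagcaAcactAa

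The copy held 90.3% of the reads of Rps27 and Rps27rt together in Ctrl (89.7% to 90.9%) and 84.6% in cKO (83.9% to 85.3%). Summed over both rows, the level was 10429 in Ctrl and 11891 in cKO, a log2 ratio of 0.19 (0.15 to 0.23), which is below 1.2-fold. Rps27 thus passed 1.5-fold only as a row of its own. How reads that match both were assigned is not given in the sources used here, and both rows are uncertain for that reason.

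Rpl34 (chr3:130726831-130730398) had 2307 reads in Ctrl and 3774 in cKO, a log2 ratio of 0.94 (0.87 to 1.02). The row Rpl34-ps1 (chr6:71124610-71124963), annotated as a processed pseudogene and outside the rule, had 5763 and 4999 reads, a log2 ratio of 0.028 (-0.027 to 0.083). Their 354-base coding sequences differ by 2 substitutions, T132C and C318G, counted from the A of the start codon with the base of Rpl34 first. The windows around them, with the differing base in capitals, show how little of the coding sequence tells the genes apart.
Rpl34 (bases 112 to 152): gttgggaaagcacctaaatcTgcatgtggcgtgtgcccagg
Rpl34-ps1 (bases 112 to 152): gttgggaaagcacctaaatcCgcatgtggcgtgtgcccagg
Rpl34 (bases 298 to 338): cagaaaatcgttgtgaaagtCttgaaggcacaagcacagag
Rpl34-ps1 (bases 298 to 338): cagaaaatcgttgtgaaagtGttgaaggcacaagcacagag

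All 50-base words of Rpl34-ps1 occur in other annotated genes, against 50.6% of those of the Rpl34 transcript. The rows of this pair are therefore uncertain as well, though less of Rpl34 is shared than of Rps27 (98.6%). The pseudogene row held 71.4% of the pair's reads in Ctrl (70.4% to 72.4%) and 57.0% in cKO (55.9% to 58.0%). The summed level of the pair was 7807 in Ctrl and 9976 in cKO, a log2 ratio of 0.35 (0.31 to 0.40), so that Rpl34 with its copy remained higher in cKO but short of 1.5-fold. With the reads of retrocopies added to their parents, a choice made after seeing the data, 0 members were called higher and the pair of Rpl34 had the highest ratio of the core.

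**Figure D3:**
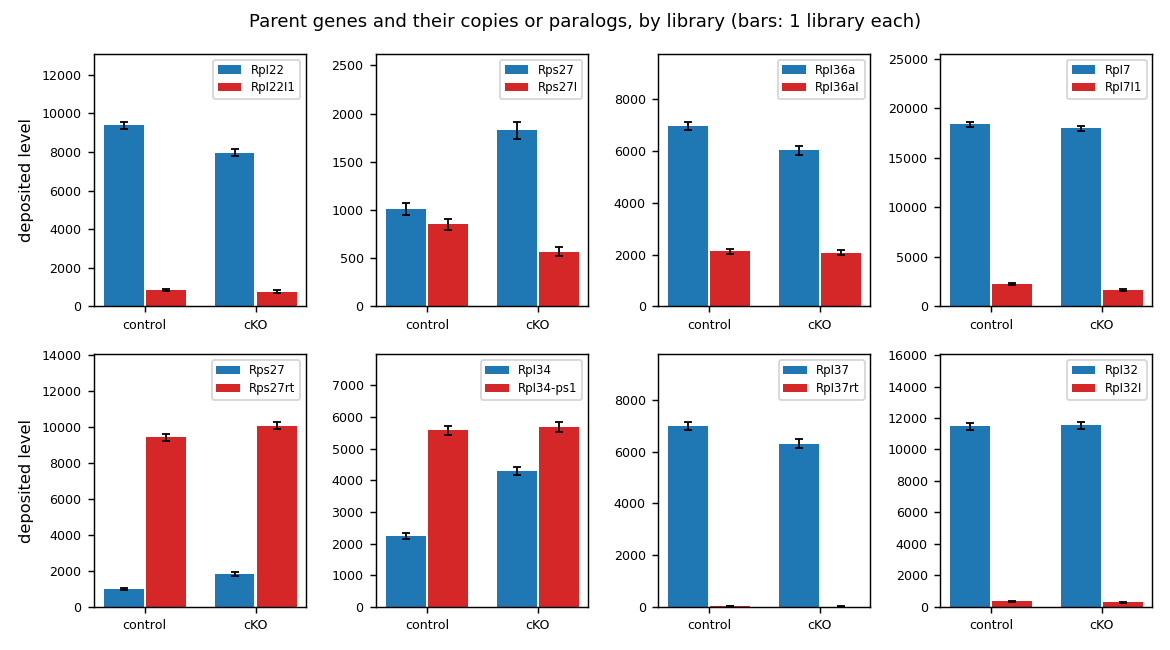
Deposited level (vertical axes, linear, from 0) of parent genes in blue and their copies or paralogs in red, in the Ctrl and cKO libraries, with 1 library per bar and 95% Poisson counting intervals. Rps27rt and Rpl34-ps1 exceed their parents in both libraries. Rps27l is 23.7% of its pair with the Rps27 row in cKO against 45.8% in Ctrl. With the reads of Rps27rt included, it is 4.56% in cKO against 7.55% in Ctrl.

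Outside the core, 10 of the 11 genes passed the filter and 3 were called lower, where the background was 24.2% of all genes. Rpl37rt (chr5:115102923-115110268), annotated as a transcribed processed pseudogene of Rpl37, had 34 reads in Ctrl and 6 in cKO, a log2 ratio of -2.12 (-3.81 to -1.0). Its coding sequence differs from that of Rpl37 by G249A alone. Rpl37 itself had 7222 and 5552 reads, a log2 ratio of -0.15, so the copy supplied 0.47% of the pair in Ctrl and 0.11% in cKO. Rpl37 with the copy added stayed at -0.15.

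Rpl3l, the muscle relative of Rpl3, and Rpl39l, the testis relative of Rpl39, each had 11 reads in Ctrl and 0 in cKO. Against a floor of 3 reads both were at least 3.12-fold lower in cKO. Zeros at such read numbers were common and uneven between the libraries. Of the 1224 genes with 10 to 19 reads in Ctrl, 610 had 0 reads in cKO. In the other direction, 158 of the 836 genes with 10 to 19 reads in cKO had 0 in Ctrl. What set these rows to 0 was not tested, and the floor and the intervals cover counting error only. The parents Rpl3 (22263 and 18052 reads) and Rpl39 (6072 and 5038 reads) were at -0.069 and -0.036. Rpl10l, the testis relative of Rpl10, had 0 reads in both libraries, and Rpl10 was at -0.044 with 12496 and 10308 reads.

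Rps27l, with 881 reads in Ctrl and 500 in cKO, had a log2 ratio of -0.58 (-0.75 to -0.42), just short of the threshold on the deposited scale. The count test called it lower, and it passed 1.5-fold with TMM, at -0.61, with median of ratios, at -0.60, and with library totals, at -0.67. Of the reads of Rps27, Rps27rt and Rps27l together, a sum chosen after seeing the data, it held 7.55% in Ctrl (7.08% to 8.05%) and 4.56% in cKO (4.18% to 4.97%). Rpl7l1, a relative of Rpl7, had 2388 and 1467 reads, a log2 ratio of -0.47 (-0.56 to -0.38), while Rpl7 with 19038 and 15820 reads was at -0.034. The share of Rpl7l1 in the pair's reads was 11.1% (10.7% to 11.6%) in Ctrl and 8.49% (8.07% to 8.91%) in cKO. Rpl22 and its relative Rpl22l1, which can take its place in the ribosome, both lay below 0. Rpl22l1 had 897 and 676 reads, a log2 ratio of -0.17 (-0.32 to -0.029), and held 8.46% and 8.79% of the pair, intervals of which overlap.

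For the other 3 genes outside the core the interval included 0. Rpl36al, a relative of Rpl36a, had 2193 and 1817 reads, a log2 ratio of -0.038 (-0.13 to 0.052), and its share of the pair was 23.4% in Ctrl and 25.6% in cKO. Rpl32l, a processed pseudogene of Rpl32, had 358 and 262 reads, a log2 ratio of -0.22 (-0.45 to 0.017), and Rpl32 was at 0.0073. Rps19bp1 had 300 and 228 reads, a log2 ratio of -0.16 (-0.42 to 0.091). The pseudogene row Rpl31-ps12, outside the rule, had 788 and 571 reads.

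Sequence shared with copies was general in the group. In 48 of 77 core genes, more than 50% of the 50-base words of the transcript also occurred in another annotated gene. Over the 77 core genes the shared percentage and the log2 ratio had a Spearman rho of -0.059 and a Pearson r of 0.033, a description across genes from the same 2 libraries. Rps2, with 79.0%, Rps12, with 90.1%, and Rpl10, with 92.1%, also share most of their sequence and were at -0.32, -0.22 and -0.044. A large shared fraction therefore occurred with ratios on either side of 0.

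**Figure D4:**
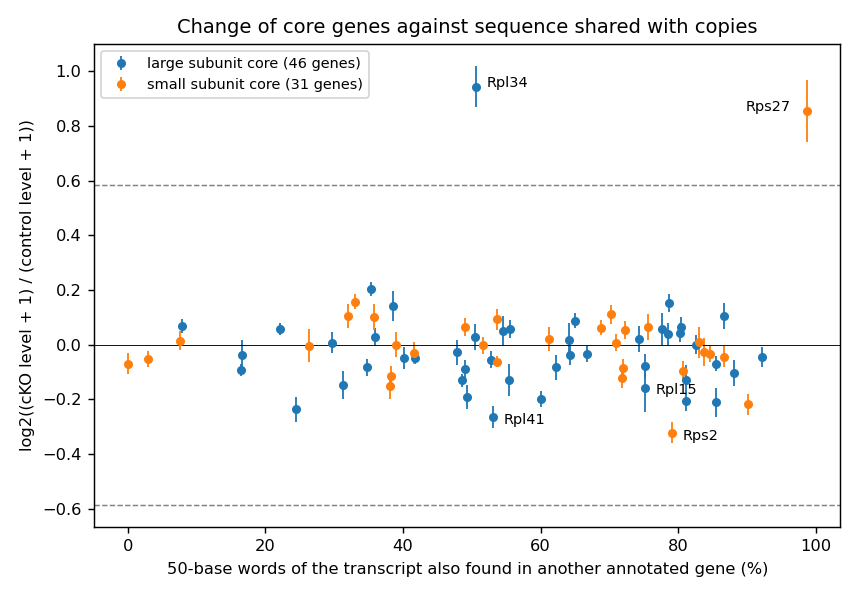
Percentage of the 50-base words of each core transcript that occur in another annotated gene (horizontal) and its log2 ratio in cKO over Ctrl (vertical), with 95% counting intervals and dashed lines at 1.5-fold. Except for Rpl34 at 50.6% and Rps27 at 98.6% shared words, the core genes form a flat band inside the dashed lines.

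Levels of different members were compared as reads per kilobase of annotated transcript per 1000000 reads. The core genes had a median of 814 in Ctrl and 736 in cKO on this scale, with a 1.85-fold distance between the quartiles in Ctrl and 1.98-fold in cKO. Rplp2 (2689 and 2686), Rps24 (2583 and 2535) and Rplp1 (2133 and 1746) were the highest in Ctrl. Rps27 (150 and 254), Rpl15 (153 and 129) and Rps20 (192 and 183) were the lowest. The value of Rps20 was divided by an annotated length of 3706 bases, and 75.2% of the 50-base words of Rpl15 occur in other genes. Rps27rt on its own reached 1286 and 1291. The order of the core genes in both libraries was nearly the same (Spearman rho 0.987, Pearson r 0.985, 77 genes that share lengths and libraries).

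Of the core genes, 32 carry an annotation tag of hosts of small nucleolar RNAs in their introns, and their median log2 ratio was -0.029, against -0.026 in the 45 without it. Ribosomal proteins that go by other names lay within the range of the core. Fau, the fusion that yields Rps30, had 3990 and 3593 reads and was at 0.082, and Rack1, a signalling scaffold on the small subunit, was at 0.024.

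The wider translation machinery was less even. Of 18 elongation factors and other 5′ TOP genes, 0 were called (all genes, 41.4% in either direction) and the median was -0.097. Eif3f was at 0.25, Eef2 at 0.11, Eef1a1, the most abundant, at 0.018, Eef1g at -0.36 and Eef1d at -0.41. Of 54 ribosome biogenesis genes, 49 lay below 0, 7 were called lower (all genes, 24.2%) and 0 higher, and the median was -0.32. Rpf2, needed to load the 5S particle, had 629 and 223 reads and was at -1.26 (-1.49 to -1.04), and Nop10, of the pseudouridylation particle, was at -0.98. Ncl, the most abundant, was at -0.40, while Tcof1 was at 0.17 and Myc at 0.27. Among the 78 mitochondrial ribosomal protein genes, 67 lay below 0, 15 were called lower (all genes, 24.2%) and 2 higher (all genes, 17.2%), and the median was -0.30. Mrpl47 was at -1.41, Mrpl14 at -1.08, Mrpl24, the most abundant, at -0.35, Mrps18b at 0.61 and Mrps24 at 0.70.

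The medians of the biogenesis and mitochondrial lists were thus close to that of the 16 T cell core markers, -0.28, and the core ribosomal protein genes were not. With the T cell core set equal, the median of all genes moved by 0.28 and, by construction, the lists shifted with it. Of 13 mTOR and TOP regulators, the median was 0.014 and only Mlst8 was called (all genes, 41.4% in either direction). Mlst8, a subunit of both mTOR complexes, was at 1.06 with 403 and 718 reads. Larp1, the most abundant, was at -0.094, Deptor at 0.29, Rptor at -0.15 and Rheb at -0.27.

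**Figure D5:**
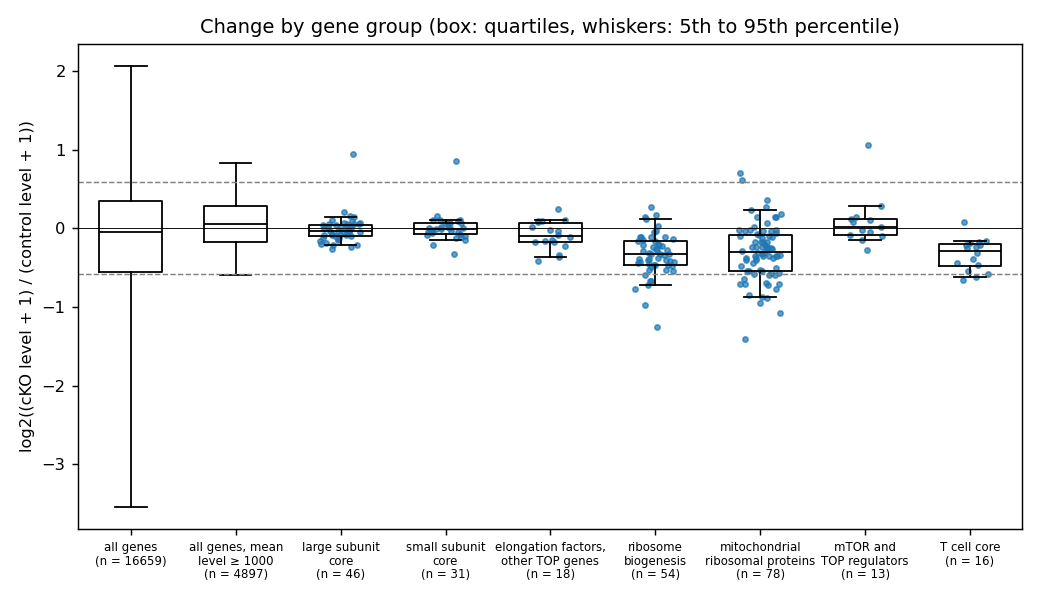
Log2 ratio of the level in cKO over Ctrl (vertical) by gene group, where boxes show the median and quartiles, whiskers the 5th to 95th percentile, and points the single genes of the smaller groups. Dashed lines mark 1.5-fold. Both core groups lie in a narrow band near 0, and the boxes of the biogenesis and T cell core genes lie below it. The mitochondrial ribosomal protein box lies mostly below it. Its upper quartile (-0.089) just overlaps the lower quartile of the large subunit core (-0.0997).

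The cell type markers, given here as values for comparison, had wider quartiles than the core genes. Among 12 Treg markers the median was 0.10, with Lrrc32 at 1.35, Entpd1 at 0.78, Ikzf2, the most abundant, at -0.22 and Tnfrsf4 at -0.68. In the T cell core Cd2 was at 0.078, Tcf7, the most abundant, at -0.16, Cd4 at -0.61 and Cd3g at -0.66. B cell markers ran from Blnk at 1.11 and Ms4a1 at 1.94 to Ebf1 at 3.01 and Pax5 at 3.10, with a median of 2.47. Macrophage markers had a median of 3.0, with Cd68 at 0.85 and Csf1r at 1.15 the lowest, and Cd5l at 4.38 and Marco, with 0 and 20 reads, the highest. Granulocyte markers had a median of 0.45, from Ctsg at -1.38 and Prtn3 at -1.17 to Camp at 0.88 and Csf3r at 1.01, with S100a9 at 0.46. Erythroid markers had a median of -1.16, with Klf1 at -1.56, Tfrc at -1.28 and Hba-a2 at 0.44. The beta-globin rows stood opposite each other, Hbb-b1 with 2583 and 12 reads and Hbb-bs with 3 and 2626. Whether the mice of the 2 libraries differed at this locus or in strain background was not tested.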

How the data were processed

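Poly(A) RNA of splenic Treg cells was sequenced in 1 Ctrl and 1 cKO library. The authors' methods name TopHat and mm10, whereas the submitters' processing notes name bcl2fastq 2.0, STAR, StringTie and DESeq2 with no role; the counting tool, annotation and strand setting are not given in the sources used here. The deposited values are a signal per gene, namely read counts divided by 1 factor per library: 100% of values were whole multiples, within 0.01 reads, of the value of 1 read (0.967 in Ctrl, 1.14 in cKO). Dividing by it gave the reads used for intervals and shares.

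Log2 ratios used a pseudocount of 1, a minimum mean of 1 and a 1.5-fold threshold, and a ratio on this scale understates the change of low genes. No p-value is given, as 1 library per genotype has no replicates. Members and lists were chosen with earlier results of these data known. Genes named were the functional lists, members outside the core with their parents, the 5 highest and 5 lowest core ratios, the 3 highest and 3 lowest levels per length, members with under 10 reads, and of other lists the 2 highest, 2 lowest and most abundant genes. Coordinates, lengths (shortest principal transcript, chosen after seeing the files) and coding sequences came from GENCODE M21 on GRCm38. The added count test was a two-sided exact binomial test against TMM-scaled totals with Benjamini-Hochberg adjustment, at an adjusted p under 0.1 and 1.5-fold, for genes with at least 10 reads. It compares the 2 libraries, not the genotypes. Intervals were tested only on simulated Poisson counts of genes with many reads. The intervals assume such counting error, so that test does not cover low rows or error beyond counting. TMM factors came from edgeR 4.0.16 and median-of-ratios factors from DESeq2 1.42.0 in R 4.3.3, and the other steps ran in Python 3.11.15 (scipy 1.17.1, pandas 2.3.3, numpy 2.4.6, matplotlib 3.10.9). Results for some genes of the naming rule are not reported here.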

Additional observations from a re-analysis of the deposited data

How the results depend on the processing

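No paired analysis was possible because Ctrl and cKO were sequenced once each, and no replicate could be left out. Scaling moved the medians most. With library totals the median log2 ratio was -0.126 over all members, -0.127 over the large and -0.0921 over the small subunit core, and with the T cell core set equal it was 0.247, 0.246 and 0.281. The log2 ratio of the summed level was -0.108 with library totals, -0.0414 with TMM, -0.0338 with median of ratios and 0.265 with the T cell core set equal. The last of these moved the median of all genes by 0.281. Members called higher, 2 in the main comparison, were 1 with -ps rows added to the parent, 0 with retrocopy reads added (chosen after seeing the data) and 0 at a 2-fold threshold. Members called lower, 3 in the main comparison, were 1 with a minimum mean of 10, 1 when only members above 0 in both libraries were used, 0 in the core alone and 7 at 1.2-fold. With TMM, median of ratios or library totals they were 4, with Rps27l as the fourth, the count test also gave these 4, and it gave 2 higher. That test called 14.2% of 14863 genes higher and 18% lower. Restricting the share of reads to the core gave 5.25% in Ctrl and 4.87% in cKO, and adding -ps rows gave 5.37% and 4.98%. Of 100 named genes, 91 left their counting interval with the T cell core set equal, 62 with library totals, 4 with TMM and 2 with median of ratios, and none of those called in either direction changed sign under any alternative. Low read numbers limit Rpl3l, Rpl39l, Rpl37rt and Rpl10l, which had 34 reads or fewer in either library.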
